A study of Mus musculus with 6 samples.

Results

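The 107 protein-coding genes described here encode subunits and assembly factors of the mitochondrial respiratory chain and ATP synthase, of 35275 genes listed in the deposited table. Membership was set by gene symbol, as protein-coding genes whose symbol starts with Nduf, Sdh, Uqcr, Cox4, Cox5, Cox6, Cox7, Cox8, Atp5 or mt-. The choice was made with earlier results of these data known. Of the 107 members, 94 lie in the nuclear genome and 13 in the mitochondrial genome. RNA was measured by sequencing in 3 libraries from IL-33 KO mice and 3 from WT mice, all of the C57BL/6 strain. Every mouse in both groups had its back skin painted with the contact allergen DNFB at 0.25% in acetone and olive oil, 3 times a week for 22 days, and the epithelial region was then taken, so no untreated skin is included. IL-33 is an alarm cytokine of the epidermis, and the comparison asks which genes differ when it is missing. The sources used here give neither the way the Il33 allele was disrupted nor the age and sex of the mice.

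The respiratory chain moves electrons from NADH and succinate to oxygen and stores the energy as a proton gradient across the inner mitochondrial membrane. Complex I takes electrons from NADH and complex II takes them from succinate, complex III passes them to cytochrome c, complex IV reduces oxygen, and ATP synthase uses the gradient to make ATP. Some core subunits of complexes I, III and IV and some subunits of ATP synthase come from the small mitochondrial genome. All other subunits come from nuclear genes, so each complex except complex II is a mosaic of both genomes. Keratinocytes of the upper epidermis lose their mitochondria as they cornify, and hair follicle cells and muscle fibres are rich in them.

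Il33 itself had 21, 22 and 11 counts in the IL-33 KO libraries and 3906, 3086 and 2817 in the WT libraries, as the genotype labels require. Depth was 20459574 to 24359612 counts per library. No label says that the libraries stem from different animals, and p-values therefore cover the spread among these 6 libraries, which may be technical. Summed hair follicle markers lay apart by genotype, skeletal muscle ones barely did, and those of the other cell types overlapped. In edgeR 0 markers passed an adjusted p of 0.05. By log2 fold change, 2 leukocyte markers lay above 0 and 3 below, and 3 sebaceous gland markers above and 4 below. All 3 red blood cell markers lay above 0. The 13 matched hair follicle markers summed to 10350 to 21500 CPM (counts scaled to the size of the library) in the IL-33 KO libraries, against 2630 to 5690 CPM in WT, with 0 at a count of 0 in any library, and 12 of them had an unadjusted p under 0.05. The 10 keratinocyte markers summed to 38970, 64830 and 65320 CPM in the IL-33 KO libraries, against 89280, 90160 and 52470 CPM in WT, with 0 at a count of 0. All 10 lay below 0 by log2 fold change, at a median of -0.45, and 0 had an unadjusted p under 0.05 in edgeR. The 12 skeletal muscle markers summed to 162.5, 17.3 and 340.2 CPM in the IL-33 KO libraries, against 13.2, 16.4 and 15.0 CPM in WT, where Pvalb was at 0 counts in WT 1 and 2. All 9 tested muscle markers lay above 0 with an unadjusted p under 0.05 in edgeR, at a median log2 fold change of 3.92. All 5 melanocyte markers lay above 0 with an unadjusted p under 0.05 in edgeR, at a median log2 fold change of 1.27, and summed to 269.4, 125.0 and 223.6 CPM in the IL-33 KO libraries, against 104.2, 70.5 and 135.7 CPM in WT. Of 9 tested adipocyte markers 8 lay above 0 and 0 had an unadjusted p under 0.05, at a median log2 fold change of 0.68. The 10 in that list summed to 1101, 838.4 and 797.3 CPM in the IL-33 KO libraries, against 206.0, 858.7 and 593.9 CPM in WT, with Ucp1 at 0 counts in IL-33 KO 3 and WT 3. The 6 fibroblast markers summed to 13240, 13740 and 11720 CPM in the IL-33 KO libraries, against 12430, 14500 and 22470 CPM in WT, so WT 3 stood apart with the lowest keratinocyte and highest fibroblast sum of its genotype. By log2 fold change 1 fibroblast marker lay above 0 and 5 below, 2 of the latter with an unadjusted p under 0.05 in edgeR. In bulk tissue, fewer cells of a type and less RNA per cell cannot be told apart, and the part of tissue makeup in the values below was not tested.

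By edgeR's quasi-likelihood test at an adjusted p of 0.05, 0 members were called, in a comparison where 3 of 15720 tested genes were (0.0191%). DESeq2 also called 0 members, against 233 of its 18458 genes (1.26%). Of the 107 members, 104 had enough counts to be tested, and the smallest adjusted p among them was 0.504. Without adjustment 4 members fell under 0.05 in edgeR, which is 3.85% of them, beside 9.02% of all tested genes. Ndufb4, Ndufa4l2 and Cox8a were the lower ones in IL-33 KO (2.88% of members, beside 4.15% of all tested genes), and Cox6a2 was the higher one (0.962%, beside 4.87%). That count of 4 depended on single libraries. It was 1, 2 and 11 without IL-33 KO 1, 2 and 3, and 2, 0 and 22 without WT 1, 2 and 3. The share of all tested genes under 0.05 in those fits is not given here, so these counts are not a result about the members.

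The fold changes of the nuclear members were mostly small and of one sign. Of the 92 tested nuclear members, 80 had a log2 fold change below 0 (87.0%), beside 8176 of all 15720 genes (52.0%). With total counts in place of TMM scaling these shares were 73.9% of nuclear members and 39.3% of all genes. The median log2 fold change was -0.17 over nuclear members and -0.01 over all tested genes. Of 12 tested mitochondrially encoded members 6 lay below 0, with a median of -0.02, and of the 7 of them above 100 FPKM (reads scaled to gene length and library total) 4 lay below 0, with a median of -0.12. Members share their libraries, so these counts are a description and not a test.

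**Figure D1:**
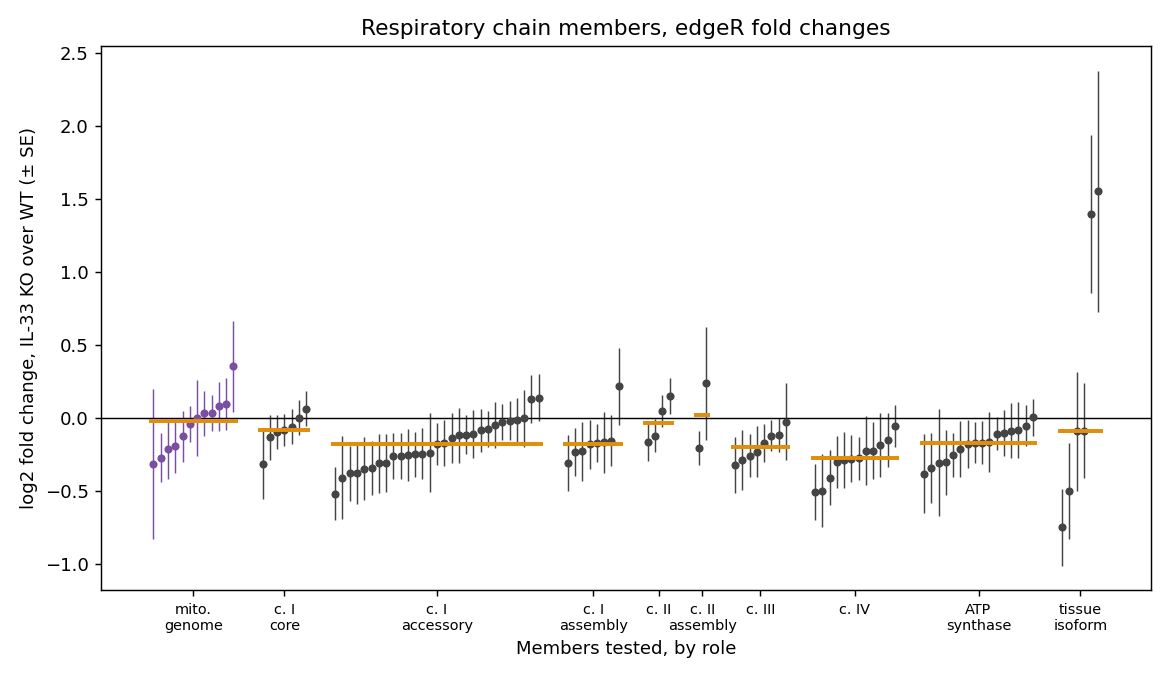
The log2 fold change of each tested member, IL-33 KO over WT, is plotted by role with its standard error, and the orange lines mark group medians. The medians lie between -0.28 for complex IV and 0.02 for the complex II assembly factors, and Cox6a2 and Cox8b stand above the rest.

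Library by library, the nuclear members did not divide by genotype. Their median log2 deviation from the mean of the 6 libraries was -0.13, -0.25 and 0.11 in IL-33 KO 1, 2 and 3, against 0.10, 0.27 and -0.10 in WT 1, 2 and 3. WT 2 was highest and IL-33 KO 2 lowest, while IL-33 KO 3 lay at the level of WT 1 and WT 3 lay among the IL-33 KO libraries. The cytosolic ribosomal protein genes, a group chosen for comparison after the values were seen, had deviations of -0.14, -0.11 and 0.17 in the IL-33 KO libraries, against 0.07, 0.23 and -0.23 in WT. Of the 79 tested ribosomal protein genes 56 had a log2 fold change below 0 (70.9%), with a median of -0.06. By deviation, IL-33 KO 1, IL-33 KO 2 and WT 3 lay below 0 in both gene groups and IL-33 KO 3, WT 1 and WT 2 above it. The share of nuclear members below 0 ranged from 73.9% without WT 2 to 91.3% without IL-33 KO 3.

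**Figure D2:**
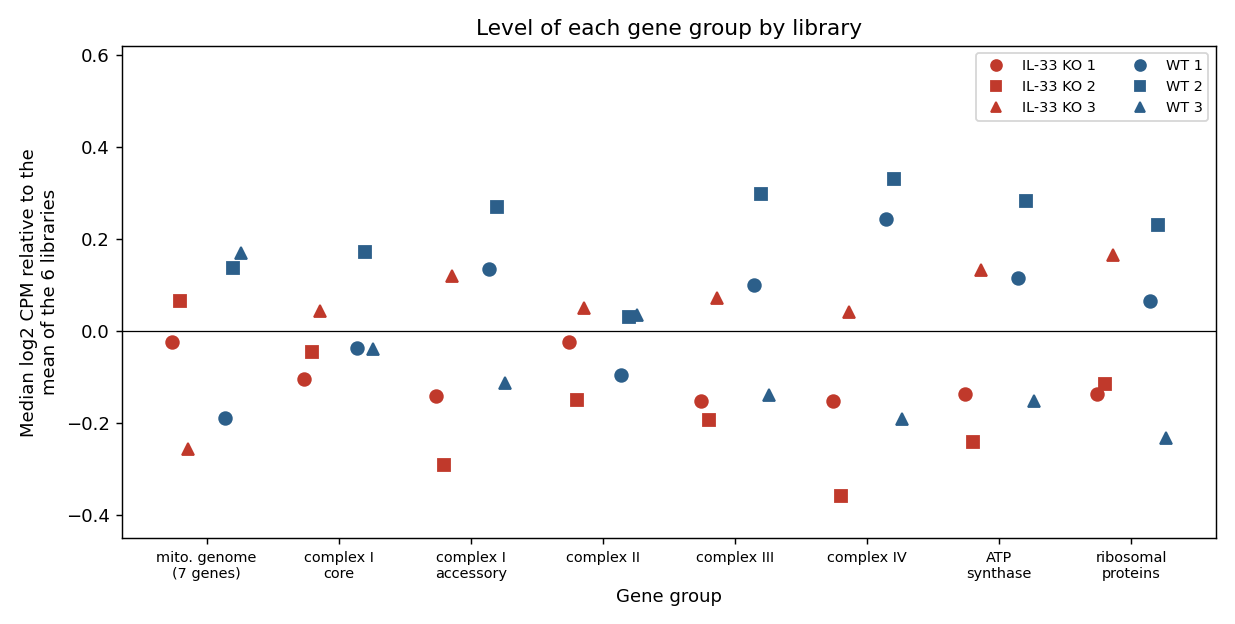
Each point is 1 library, with IL-33 KO left of WT in every gene group, and the vertical axis is the median log2 CPM of the group's members relative to the mean of the 6 libraries. WT 2 stands high and WT 3 low in complexes III and IV, ATP synthase and the ribosomal protein genes, and the genotypes overlap in every group drawn.

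Complex I, the entry point for electrons from NADH, had 44 nuclear members. The 7 core subunits, most of which carry the flavin or iron-sulphur clusters, had a median log2 fold change of -0.08, and 5 of them lay below 0. Ndufs7, which holds the last iron-sulphur cluster before quinone, had 40.2, 31.8 and 56.7 CPM in the IL-33 KO libraries, against 55.5, 63.6 and 41.0 CPM in WT. WT 1 and 3 lay inside the IL-33 KO range. Its log2 fold change was -0.32 ± 0.24 (SE), which became -0.14 when IL-33 KO 2 was left out and -0.57 when IL-33 KO 3 was. Ndufs8, another iron-sulphur subunit, had a log2 fold change of -0.13 ± 0.15 (SE).

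Among the 29 accessory subunits of complex I, 26 lay below 0, with a median of -0.18. Leaving out IL-33 KO 2 gave a median of -0.09, leaving out IL-33 KO 3 or WT 3 gave -0.29, leaving out WT 2 gave -0.08, and total counts gave -0.09. Ndufb4, a subunit of the membrane arm (mm10 chr16:37647170-37654453, minus strand), had the lowest log2 fold change of the group. Its level was 22.0, 21.2 and 27.0 CPM in the IL-33 KO libraries, against 37.7, 37.3 and 25.5 CPM in WT. The log2 fold change was -0.52 ± 0.18 (SE), at an unadjusted p of 0.0217 and an adjusted p of 0.504 in edgeR. The IL-33 KO libraries were close together, and WT 3 lay below IL-33 KO 3. Of the 100-base windows of its transcript, 33.4% also occur in the related gene Ndufb4c, so part of its count is uncertain. Ndufa1, a small membrane-arm subunit on the X chromosome, had 55.1, 48.0 and 65.8 CPM in the IL-33 KO libraries, against 80.1, 83.8 and 55.5 CPM in WT, again with WT 3 inside the IL-33 KO range. Ndufb9, the highest accessory subunit, had 195.2 ± 13.8 FPKM in the IL-33 KO libraries, against 199.1 ± 16.8 FPKM in WT (SD, n = 3 each).

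Ndufb2, singled out after its values were seen, was listed at 0.667 ± 0.203 FPKM in the IL-33 KO libraries, against 0.738 ± 0.109 FPKM in WT (SD, n = 3 each), while the median accessory subunit had 70.0 FPKM. It encodes a membrane-arm subunit, and its position overlaps those of Braf, Adck2 and Gm16272 in the same table. In all, 31 of 107 members overlap another listed gene, 24 of them one on the opposite strand. The sources used here do not say whether counting used strand, and whether overlap bears on the level of Ndufb2 was not tested.

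The 8 complex I assembly factors, which help build the complex but are not part of it, had a median log2 fold change of -0.18. Ndufaf2, the highest of them, had 15.3, 10.8 and 17.1 CPM in the IL-33 KO libraries, against 18.3, 19.1 and 16.0 CPM in WT, with a log2 fold change of -0.31 ± 0.19 (SE). Of the windows of its longest GENCODE transcript (2404 bases), 80.5% also occur in a second annotated gene, B230220B15Rik. The deposited length of Ndufaf2 is 679 bases, so whether this sharing bears on its count was not tested. Atp5sl, an assembly factor of the membrane arm despite its symbol, had a log2 fold change of -0.23 ± 0.17 (SE). Ndufaf7, a methyltransferase, had 15.1, 13.6 and 15.5 CPM in the IL-33 KO libraries, against 16.1, 17.4 and 16.3 CPM in WT. The genotypes did not overlap for Ndufaf7, with a log2 fold change of -0.17 ± 0.13 (SE).

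Complex II, succinate dehydrogenase, is also an enzyme of the citrate cycle and has no mitochondrially encoded subunit. Of its 4 members 2 lay above 0 and 2 below. Sdhb, the iron-sulphur subunit, had 81.4, 66.5 and 83.3 CPM in the IL-33 KO libraries, against 67.2, 72.2 and 68.9 CPM in WT, and IL-33 KO 2 lay below all WT libraries while the other IL-33 KO libraries lay above them. Sdhc and Sdhd, the membrane anchors, had log2 fold changes of -0.16 ± 0.13 and -0.12 ± 0.11 (SE). Sdhaf2, which helps attach the flavin to Sdha, had 28.2, 28.2 and 31.2 CPM in the IL-33 KO libraries, against 33.5, 36.3 and 31.0 CPM in WT, with IL-33 KO 3 just above WT 3. Sdhaf1, an iron-sulphur assembly factor, was under 2 CPM in every library, and 68.3% of its windows occur in another annotated gene.

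All 8 nuclear members of complex III, which hands electrons from quinol to cytochrome c, lay below 0 under TMM scaling, with a median of -0.20, which was -0.33 without IL-33 KO 3 and -0.12 without WT 2. Uqcrc2, a core protein, had 125.2, 123.4 and 119.7 CPM in the IL-33 KO libraries, against 129.0, 138.4 and 132.8 CPM in WT. The genotypes did not overlap for Uqcrc2, although its log2 fold change was only -0.12 ± 0.10 (SE), and 22.7% of its windows also occur in the overlapping gene Pdzd9. Uqcrh, the hinge protein that docks cytochrome c, had 135.8, 147.3 and 170.0 CPM in the IL-33 KO libraries, against 175.7, 206.3 and 159.1 CPM in WT. Uqcrb, a quinone-site subunit, had a log2 fold change of -0.32 ± 0.19 (SE). Uqcr11, the highest of the group, had 299.9 ± 94.1 FPKM in the IL-33 KO libraries, against 285.6 ± 58.5 FPKM in WT (SD, n = 3 each), and its log2 fold change of -0.02 ± 0.26 (SE) became 0.07 with total counts.

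Complex IV, cytochrome c oxidase, had the lowest median log2 fold change of the complexes, at -0.28, and all 12 widely expressed nuclear members lay below 0 under TMM scaling. Summed over these members, the level was 2960, 2453 and 3295 FPKM in the IL-33 KO libraries, against 3418, 3882 and 2885 FPKM in WT. IL-33 KO 1 and 3 were above WT 3, and the IL-33 KO mean of 2903 ± 424 FPKM and the WT mean of 3395 ± 499 FPKM (SD, n = 3 each) had overlapping ranges. Cox8a, a small structural subunit (mm10 chr19:7215158-7217616, minus strand), had 176.0, 134.0 and 173.8 CPM in the IL-33 KO libraries, against 227.0, 280.3 and 178.6 CPM in WT. The genotypes did not overlap for Cox8a, with the nearest pair 176.0 CPM in IL-33 KO 1 and 178.6 CPM in WT 3. Its log2 fold change was -0.50 ± 0.19 (SE), at an unadjusted p of 0.0311 and an adjusted p of 0.527 in edgeR. Cox6a1, the widely expressed form of a regulatory subunit and the highest of the group, had 296.6, 242.8 and 330.3 CPM in the IL-33 KO libraries, against 380.7, 459.2 and 312.9 CPM in WT. Its log2 fold change was -0.41 ± 0.19 (SE).

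ATP synthase had 16 members, of which 15 lay below 0, with a median of -0.17. Leaving out IL-33 KO 2 gave a median of -0.08, leaving out IL-33 KO 3 gave -0.27, leaving out WT 2 gave -0.07, and total counts gave -0.08. Atp5b, the catalytic beta subunit and the highest nuclear member by FPKM, had 1047, 1051 and 1066 CPM in the IL-33 KO libraries, against 1097, 1159 and 1019 CPM in WT. Its log2 fold change of -0.05 ± 0.14 (SE) became 0.03 with total counts. Atp5j2, subunit f of the membrane part, had 155.1, 146.2 and 163.5 CPM in the IL-33 KO libraries, against 184.9, 215.7 and 152.1 CPM in WT. Atp5s, coupling factor B, was far lower, at 2.80 ± 0.1998 FPKM in the IL-33 KO libraries, against 3.38 ± 0.904 FPKM in WT (SD, n = 3 each).

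Across all groups, the libraries of the genotypes did not overlap for 5 members, all lower in IL-33 KO: Ndufa4l2, Cox8a, Ndufaf7, Uqcrc2 and Atp5c1, the last a rotor subunit of ATP synthase named after its values were seen. That is 4.81% of tested members, beside 6.47% of all tested genes without overlap and lower. By contrast 0 members were without overlap and higher, a pattern that 7.46% of all tested genes had.

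Per length, the nuclear members were not equally abundant. These FPKM use the deposited gene lengths, such as 2661 bases for Ndufa11, whose longest GENCODE transcript has 918 bases. The part of length annotation in these levels was not tested. The median member of complex IV had 260.3 FPKM over all libraries, that of ATP synthase 159.1 FPKM and that of complex III 127.8 FPKM. Accessory and core subunits of complex I had medians of 70.0 and 61.8 FPKM, and complex II subunits had one of 58.0 FPKM. Assembly factors were far lower, with medians of 6.45 FPKM for complex I and 5.31 FPKM for complex II.

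**Figure D3:**
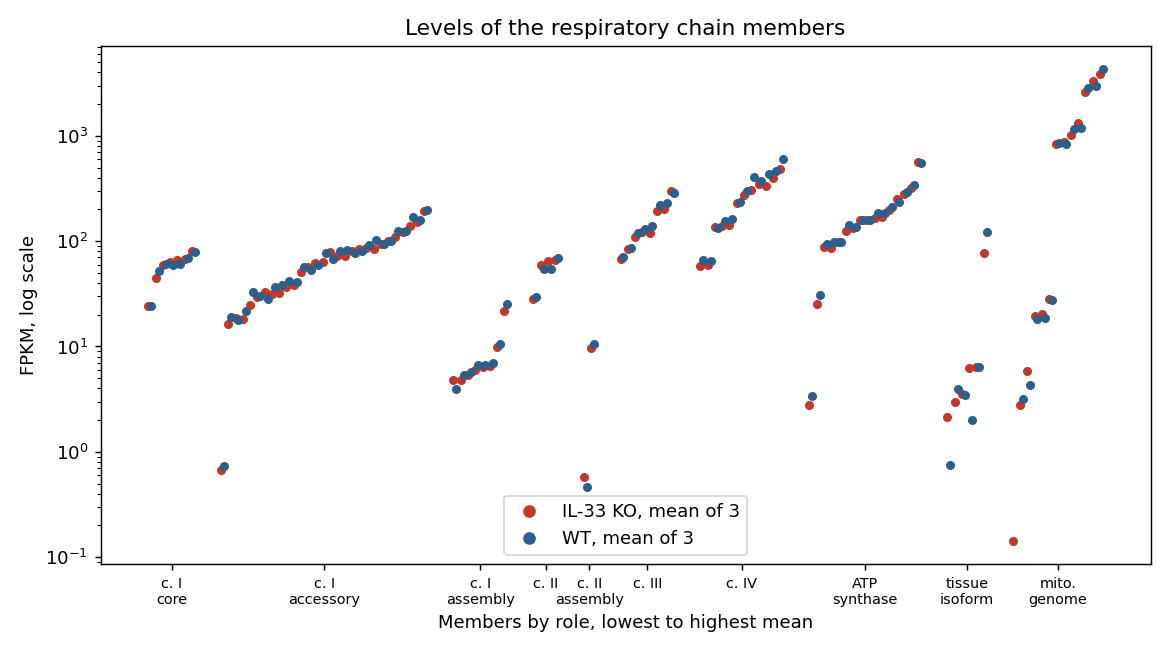
Mean FPKM of each member on a log axis is given for IL-33 KO (red) and WT (blue), ordered within each role from lowest to highest, and members at 0 are not drawn. Medians of the nuclear groups run from 3.48 FPKM for the restricted isoforms to 260.3 FPKM for complex IV, and the mitochondrially encoded members split into a high and a low set.

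The mitochondrially encoded members took 1.78%, 1.81% and 1.42% of all counts in IL-33 KO 1, 2 and 3, against 1.41%, 1.73% and 2.02% in WT 1, 2 and 3. The means were 1.67 ± 0.217% in the IL-33 KO libraries, against 1.72 ± 0.305% in WT (SD, n = 3 each), a difference smaller than the spread within either genotype. Against the nuclear members, their counts stood at a ratio of 1.697 ± 0.382 in the IL-33 KO libraries, against 1.64 ± 0.365 in WT (SD, n = 3 each). IL-33 KO 3 and WT 1 had the lowest ratios, 1.28 and 1.36, and IL-33 KO 2 and WT 3 had the highest, 2.04 and 2.05.

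Within the mitochondrial genome the levels fell into 2 sets. mt-Co1, the catalytic subunit of complex IV, had 4283, 4110 and 3269 FPKM in the IL-33 KO libraries, against 3518, 4109 and 5163 FPKM in WT. mt-Nd1, a membrane subunit of complex I beside the quinone site, had 3374, 3697 and 2946 FPKM in the IL-33 KO libraries, against 2558, 3009 and 3312 FPKM in WT. The genotypes overlapped for both. mt-Cytb of complex III, mt-Nd6, mt-Nd2, mt-Nd5 and mt-Nd4 followed, with means over all libraries of 2736, 1247, 1091, 848.5 and 841.2 FPKM. The second set was mt-Co2, mt-Atp6, mt-Co3, mt-Nd3 and mt-Nd4l, at 28.1, 19.6, 18.9, 5.07 and 2.99 FPKM, and mt-Atp8, which had 1, 1 and 0 counts in the IL-33 KO libraries, against 0, 0 and 0 in WT. mt-Co2 and mt-Co3 encode subunits of the same enzyme as mt-Co1, yet their FPKM was lower by 2 orders of magnitude.

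Of the low set, the 5 genes other than mt-Atp8 share nearly all of their sequence with other annotated genes. A stretch of chromosome 1 (mm10 chr1:24611535-24616197) carries 7 annotated pseudogenes on the minus strand, each matching part of mt-Co1, mt-Co2, mt-Atp6, mt-Co3, mt-Nd3, mt-Nd4l or mt-Nd4 with 0 mismatches over the aligned bases. For mt-Nd3 the aligned bases start at base 4, and the first 60 bases of that pair differ at 1 base. The first 90 bases of mt-Co2 and of its chromosome 1 counterpart are shown because a read from either that lies within them cannot be placed by its letters. The transcripts are those of GENCODE M21, the mt-Co2 bases lie at mm10 chrMT:7013-7102 on the plus strand and the RP23-8J15.2 bases at chr1:24615476-24615565 on the minus strand, and capitals mark the start codon.
mt-Co2: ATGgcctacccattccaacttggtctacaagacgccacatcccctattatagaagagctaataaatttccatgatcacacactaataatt
RP23-8J15.2: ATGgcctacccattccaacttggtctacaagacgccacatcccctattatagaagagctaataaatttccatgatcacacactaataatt

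These stretches differ at 0 of 90 bases. mt-Co2 had 421, 462 and 405 counts in the IL-33 KO libraries, against 358, 480 and 491 in WT, and RP23-8J15.2 had 471, 501 and 421 in the IL-33 KO libraries, against 384, 517 and 571 in WT. The copy thus held 52.3% of the counts of the pair. Over all libraries mt-Co2 had 2617 counts and its copy 2865, beside 863671 for mt-Co1. For mt-Atp6, mt-Co3, mt-Nd4l and mt-Nd3 the copies held 62.9%, 49.8%, 48.3% and 88.4% of the pair's counts, while the copies of mt-Co1 and mt-Nd4 held 0.19% and 0.36%. Of the 100-base windows of mt-Co3, mt-Atp6, mt-Co2, mt-Nd4l and mt-Nd3, 97.6% to 99.9% also occur in another GENCODE transcript. The share was 60.8% for mt-Nd4, 30.8% for mt-Co1, 3.2% for mt-Nd2 and 0 for the others, mt-Atp8 included. Only annotated transcripts were searched, so a copy of mt-Atp8 in unannotated sequence would not be seen. In the mitochondrial genome mt-Atp8 lies between mt-Co2 and mt-Atp6, overlapping the latter, and the copies of those genes are neighbours on chromosome 1. The quantifier named in the submitters' processing notes, RSEM, divides a read that matches several transcripts among them by estimated abundance, but the notes do not say that the deposited whole-number counts are its output. The levels of these 5 genes are therefore uncertain, and whether the copies account for their low values was not tested.

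**Figure D4:**
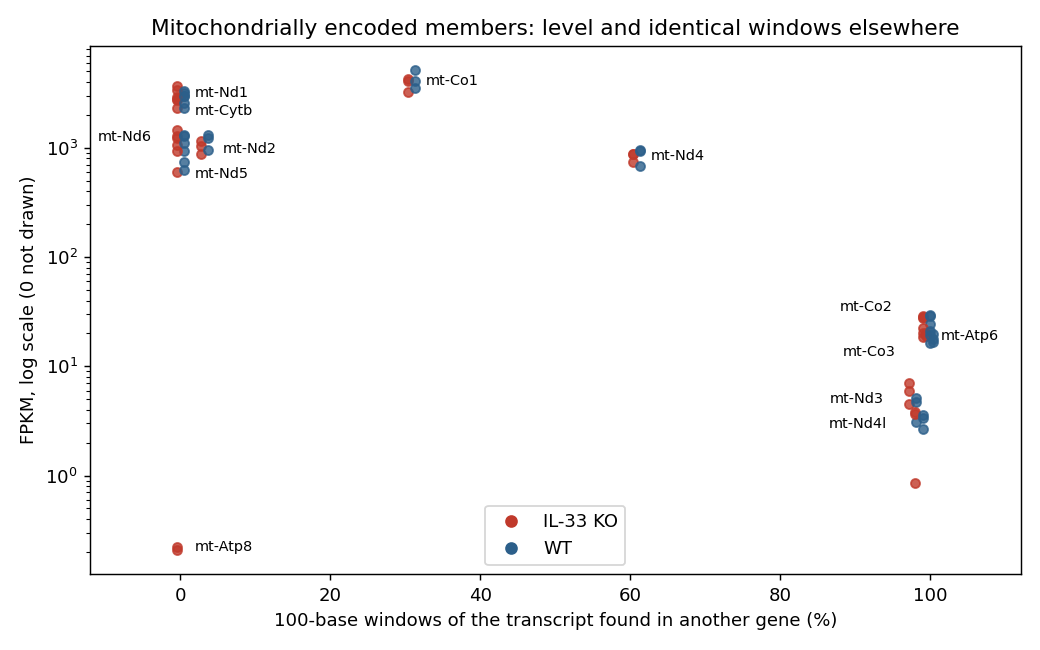
FPKM of each mitochondrially encoded member in each library, on a log axis, is plotted against the share of its 100-base windows found in another annotated gene, with IL-33 KO points just left of WT points. The 5 genes with 97.6% to 99.9% of windows elsewhere all lie at or below 30 FPKM, and the members with means of 841.2 FPKM or more have 0 to 60.8%.

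Between genotypes the mitochondrially encoded members lay on both sides of 0. Their log2 fold changes ran from -0.31 ± 0.51 (SE) for mt-Nd4l to 0.35 ± 0.31 (SE) for mt-Nd3, both with few counts. Among the 7 abundant ones the extremes were -0.27 ± 0.17 (SE) for mt-Nd2 and 0.10 ± 0.18 (SE) for mt-Nd1. mt-Co1 and mt-Cytb had log2 fold changes of -0.21 ± 0.21 and -0.19 ± 0.19 (SE), mt-Nd4 of -0.12 ± 0.18, mt-Nd6 of 0.08 ± 0.17 and mt-Nd5 of 0.00 ± 0.26. mt-Co2, mt-Atp6 and mt-Co3 lay at -0.04, 0.03 and 0.04. None had an unadjusted p under 0.05 in edgeR.

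Several subunits have a second form used in particular tissues, and these isoforms had the widest range of fold changes. Ndufa4l2, a hypoxia-induced relative of Ndufa4 (mm10 chr10:127514939-127517152, plus strand), had 48.2, 84.1 and 86.4 CPM in the IL-33 KO libraries, against 124.1, 152.5 and 90.1 CPM in WT. The genotypes did not overlap, though IL-33 KO 3 and WT 3 were close, and the log2 fold change was -0.75 ± 0.26 (SE), at an unadjusted p of 0.02205 and an adjusted p of 0.504 in edgeR. Ndufa4, its widely expressed relative and now counted with complex IV, had 164.8, 193.4 and 217.9 CPM in the IL-33 KO libraries, against 259.6, 265.0 and 184.4 CPM in WT, with WT 3 inside the IL-33 KO range.

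Cox6a2, the heart and skeletal muscle form of Cox6a1, had 47, 12 and 32 counts in the IL-33 KO libraries, against 7, 11 and 17 in WT. IL-33 KO 1 and 3 were high and IL-33 KO 2 lay in the WT range, and the log2 fold change was 1.40 ± 0.54 (SE), at an unadjusted p of 0.0326 and an adjusted p of 0.529 in edgeR. The same 2 libraries were high in muscle RNA, with 904, 13 and 1258 counts of Acta1, skeletal muscle actin, in the IL-33 KO libraries, against 7, 6 and 3 in WT. Cox8b, a form of muscle and brown fat, had 46, 36 and 64 counts in the IL-33 KO libraries, against 0, 14 and 39 in WT. Its log2 fold change was 1.55 ± 0.83 (SE). Ucp1, which defines brown fat, had at most 3 counts in any library. The part of muscle RNA in Cox6a2 and Cox8b was not tested.

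Of the other restricted forms, Cox7a1 of muscle, Cox4i2 of lung and Cox6b2 of testis had log2 fold changes of -0.09 ± 0.41, -0.09 ± 0.32 and -0.50 ± 0.33 (SE), each between 0.67 and 6.4 CPM. Cox7b2 and Cox8c, testis forms, had 0 counts in every library and were not tested. Cox7a2, the common partner of Cox7a1, had 97.3, 92.9 and 113.0 CPM in the IL-33 KO libraries, against 135.2, 135.3 and 96.9 CPM in WT.

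**Figure D5:**
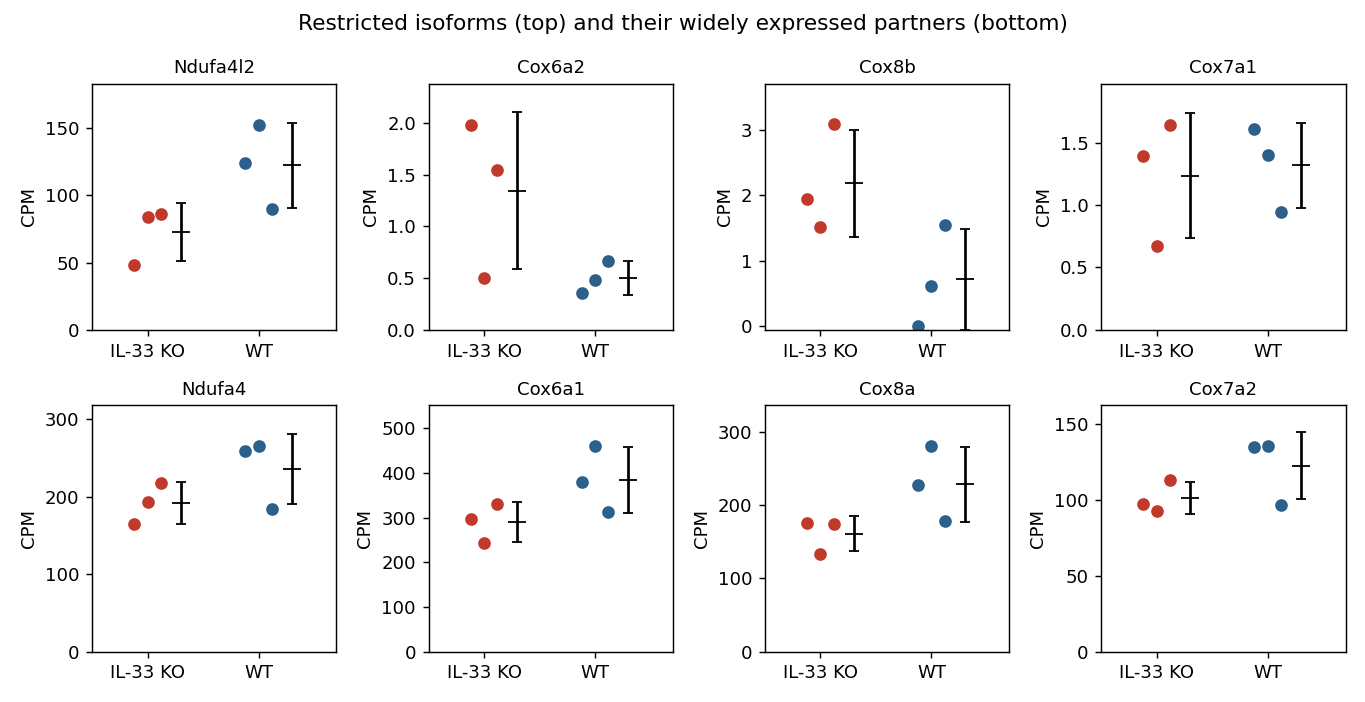
CPM in each library of 4 restricted isoforms (top) and their widely expressed partners (bottom) is shown with IL-33 KO left of WT, and bars give the mean and SD of 3 libraries. The 4 partners lie lower on average in IL-33 KO, while Cox6a2 and Cox8b lie higher there at levels below 4 CPM.

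Promoters of respiratory chain genes are known to hold sites for NRF1, for GABPA of the ETS family and for YY1. RefSeq promoters (GRCm38.p6, 250 bases before to 50 after the start) were matched for 75 of 94 nuclear members, giving 80 promoters. The letters GCATGCG, the middle of the NRF1 site, were searched on both strands like the others, and were in 16.2% of member promoters beside 3.58% of all 32851 promoters. CCGGAAG (GABPA) was in 23.8% beside 8.86%, ATGGCGG (the middle of the YY1 site) in 16.2% beside 4.05%, and TATAAA (the TATA box) in 10% beside 13.6%. Letters of different motifs overlapped in 0 member promoters. The stretches below are shown because Cox6a1 and Cox6b1 are complex IV members and Ndufa11 is a complex I accessory subunit with a log2 fold change of -0.34 ± 0.18 (SE). Cox6b1 and Ndufa11 were named after their values were seen. Under TMM scaling most members with the NRF1 or GABPA letters had log2 fold changes below 0, as did 87% of all tested nuclear members. Sdhb, with both motifs, and Sdhaf1 and Ndufb6, with the GABPA letters, lay above 0. Atp5j, Atp5k, Atp5l, Cox6a1 and Uqcr11, also with both motifs, lay below it. The stretches come from chr5:115349075-115349154 (minus strand), chr17:56717668-56717747 (plus strand) and chr7:30626115-30626194 (minus strand), each read in the direction of its gene. Capitals mark the NRF1 letters in Cox6a1 and Ndufa11, which read on both strands with an offset of 1 base, and the GABPA letters in Cox6b1, which read from the opposite strand.
Cox6a1: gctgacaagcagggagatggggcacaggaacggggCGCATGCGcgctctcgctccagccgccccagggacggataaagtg
Ndufa11: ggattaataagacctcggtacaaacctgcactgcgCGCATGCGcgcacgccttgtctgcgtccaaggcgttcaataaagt
Cox6b1: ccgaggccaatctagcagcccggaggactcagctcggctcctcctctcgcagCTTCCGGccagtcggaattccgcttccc

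Cox6b1 had 170.3, 124.4 and 192.0 CPM in the IL-33 KO libraries, against 257.3, 274.3 and 154.3 CPM in WT. Ndufa11 had 46.0, 39.9 and 55.7 CPM in the IL-33 KO libraries, against 65.4, 67.6 and 46.4 CPM in WT. WT 3 lay inside the IL-33 KO range for both. Whether the motif letters bear on these levels was not tested.

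Genes around the chain were read from lists of related functions. Of 11 respiratory chain genes outside the symbol rule, 10 lay below 0, with a median of -0.31. Cycs, cytochrome c, had 92.8, 85.4 and 110.5 CPM in the IL-33 KO libraries, against 127.0, 121.8 and 109.5 CPM in WT. Higd2a, a complex IV assembly protein, had 37.8, 29.4 and 44.7 CPM in the IL-33 KO libraries, against 54.2, 63.5 and 40.7 CPM in WT. The 22 tested assembly genes of complex IV and ATP synthase had 9 above and 13 below 0. Atpaf1, which helps assemble the catalytic head of ATP synthase, had 25.3, 24.3 and 23.9 CPM in the IL-33 KO libraries, against 18.8, 16.3 and 19.7 CPM in WT. Its genotypes did not overlap, and its log2 fold change was 0.42 ± 0.12 (SE), at an unadjusted p of 0.009496 and an adjusted p of 0.440 in edgeR. Cox17, the copper chaperone of complex IV, had a log2 fold change of 0.62 ± 0.25 (SE).

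Among 11 coenzyme Q synthesis genes, 2 lay above and 9 below 0. Adck3 (Coq8a), a kinase-like protein of that pathway, had 9.57, 9.49 and 9.87 CPM in the IL-33 KO libraries, against 3.68, 5.28 and 6.31 CPM in WT, without overlap. Its log2 fold change was 0.92 ± 0.22 (SE), at an unadjusted p of 0.003091 and an adjusted p of 0.365 in edgeR. Pdss1, which makes the tail of coenzyme Q, had 12.9, 12.5 and 12.4 CPM in the IL-33 KO libraries, against 15.6, 18.6 and 30.6 CPM in WT, also without overlap.

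The remaining lists held 0 members with an unadjusted p under 0.05. Genes that transcribe and process mitochondrial RNA had 5 above and 12 below 0, with a median of -0.01, and Peo1 (the helicase Twinkle) had a log2 fold change of 0.26 ± 0.12 (SE) and the nuclease Pnpt1 one of -0.31 ± 0.17 (SE). The regulators had 6 above and 6 below, led by Myc at -0.22 ± 0.17 and Ppara at 0.72 ± 0.62 (SE). The citrate cycle had 5 above and 12 below, led by Suclg2 at -0.19 ± 0.13 and Mdh2 at -0.17 ± 0.16 (SE). Glycolysis had 2 above and 13 below, with a median of -0.23, led by Pfkm at 0.34 ± 0.18 and Tpi1 at -0.36 ± 0.21 (SE). The carriers had 3 above and 5 below, led by Ucp3 at 1.00 ± 0.51 and Vdac2 at -0.29 ± 0.15 (SE). In all 8 lists, 0 genes passed an adjusted p of 0.05.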

How the data were processed

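RNA-seq libraries of the epithelial region of back skin were grouped by genotype and replicate number from the sample titles, 3 IL-33 KO and 3 WT. The authors deposited whole-number read counts and FPKM values for 35275 genes. The submitters' processing notes name the aligner STAR, the quantifier RSEM and the build mm10, without versions. The deposited FPKM equal count over length over column total within a relative difference of 2.19e-09, so they are not an independent measurement. Counts were used unchanged.

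The genotype effect on counts was fitted by edgeR 4.0.16 in R 4.3.3 (filterByExpr by genotype, TMM, quasi-likelihood F test, two-sided, Benjamini-Hochberg over 15720 genes, threshold 0.05), after testing on simulated data. Standard errors were derived from the F statistic. CPM are counts scaled to the TMM-adjusted library size. The common biological coefficient of variation was 21.3%. Pairs of libraries differed beyond sampling noise, with a chi-square per degree of freedom of 34.19 or more.

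The members and lists were chosen with earlier results of these data known. Of each role group the 2 members with the smallest p and the highest mean FPKM are named, with every mitochondrially encoded member, every restricted isoform and up to 4 members without overlap between genotypes, and of each list the 2 with the smallest p. 1 member that this rule would name is not reported here. Other names were chosen after their values were seen. Peo1, Adck3 and Adck4 were matched by identifier, and 1 hair follicle symbol was not matched. DESeq2 1.42.0 and limma 3.58.1, on voom weights and on log2(FPKM + 1) or log2(FPKM + 0.1) (FPKM of 1 or more in 3 libraries), other scalings, no filter, a replicate block and each library left out were the alternatives. Shared sequence was searched as 100-base windows of each member's longest transcript among GENCODE M21 transcripts, all 107 members being found there.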

Additional observations from a re-analysis of the deposited data

How the results depend on the processing

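Members called stayed at 0 under each of the 11 other scalings, filters, tools and fits and without each library. The number of all genes called, 3, was 5 with upper quartile scaling, 5 with total counts, 33 with no count filter, 233 in DESeq2, 11 in limma-voom, 15 on log2(FPKM + 1), 11 on log2(FPKM + 0.1) and 6 on unfiltered log2(FPKM + 1), and 2 to 24 with 1 library left out (24 without WT 3). Members with an unadjusted p under 0.05 numbered 7 with no count filter and 6 in DESeq2. The share of all genes at that threshold is not given for these fits or for the block below. The labels do not say whether the replicate numbers pair the libraries. Same-numbered libraries deviated with correlations of -0.26, -0.12 and -0.38, which cannot settle this with 3 libraries per genotype. With the replicate number as a block, 2 genes and 0 members were called and 1 member had an unadjusted p under 0.05.

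With 1 library left out, the median log2 fold change ranged from -0.115 (without WT 1) to 0.00555 for the mitochondrially encoded members and from -0.112 to 0.0216 (without WT 2) for the complex I core. It ranged from -0.380 (without IL-33 KO 3) to 0.132 (without IL-33 KO 2) for the restricted isoforms, from -0.108 (without IL-33 KO 3) to 0.163 (without IL-33 KO 1) for the complex II assembly factors and from -0.0676 to -0.00324 (without WT 2) for complex II. With total counts, which moved the median of all genes to 0.0670, it was -0.113 for complex III, -0.185 for complex IV, -0.0915 for the complex I assembly factors and -0.00183 for the core. Without its highest member, the log2 ratio of summed FPKM was 0.320 for the complex II assembly factors and 0.352 for the restricted isoforms. Of 46 named members that were tested, 11 changed sign in at least 1 setting, all uncalled, and the cause was not tested. With total counts Atp5b was at 0.0346, Cox7a1 at 0.00648, mt-Co2 at 0.0402 and Uqcr11 at 0.0709. On log2(FPKM + 1), filtered or not, Atp5b was at 0.0341, mt-Co2 at 0.0432 and Uqcr11 at 0.0440, and on log2(FPKM + 0.1) Atp5b was at 0.0342, mt-Co2 at 0.0447 and Uqcr11 at 0.0440. mt-Nd5 was at -0.00930 in limma-voom and at -0.00506 with the block. With 1 library left out the ranges were -0.413 to 0.145 for Cox4i2, -0.0883 to 0.0201 for mt-Co2, -0.192 to 0.206 for mt-Nd5, -0.311 to 0.161 for Uqcr11, -0.347 to 0.207 for Cox7a1, -0.00465 to 0.169 for mt-Nd1, -0.632 to 0.113 for mt-Nd4l, -0.0313 to 0.176 for mt-Nd6, -0.0623 to 0.127 for mt-Atp6 and -0.232 to 0.0453 for Ndufs8. Few counts limit mt-Nd4l, mt-Nd3, Cox6a2, Cox7a1 and Cox8b.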
